A study of Homo sapiens with 18 samples.

Results

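The 9 genes described here encode surface proteins that antibodies, antibody-drug conjugates, CAR T cells or radioligands address in neuroblastoma: GPC2, CD276 (B7-H3), L1CAM (CD171), NCAM1 (CD56), SSTR2, CD24, CD47, PVR (CD155) and THY1 (CD90). They were chosen by name from this list of therapy targets, with earlier results of these data known. Their rows were found by Ensembl identifier among the 63657 identifiers of the deposited expression table. All 9 were found. CD24 was listed at 0 in every library and could not be tested, which left 8 tested members.

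Bulk RNA sequencing covered 6 human neuroblastoma lines in triplicate, which gave 18 libraries. The parental line, SY5Y_BR6, is a derivative of SH-SY5Y, an established neuroblastoma line, and was made to express the neurotrophin receptor TrkB. Tumours of this line in athymic nu/nu mice were treated with 60 mg/kg oral entrectinib, an inhibitor of Trk receptors, ALK and ROS1, and shrank or stopped growing before they regrew. Each of the 5 resistant lines came from a single such tumour: ER5, ER28 and ER29 from mice dosed every 4 hours, and ER42 and ER47 from mice dosed every 6 hours. Those lines were cultured in entrectinib that rose from 10 nM to 750 nM and were held at 200 nM for harvest, whereas the labels name no drug for the parental culture. Drug exposure at harvest, growth in a mouse, culture history and resistance therefore cannot be told apart in any comparison with the parental line. The nude mouse host lacks mature T cells but keeps natural killer cells and macrophages. Whether the triplicates were separate cultures is not stated, so p-values reflect the spread among triplicate libraries, which may be technical.

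A surface target is useful for therapy where tumour cells carry it at high density and normal tissue does not. Several of the 9 proteins have a second role as signals to immune cells: CD47 and CD24 are read by macrophages as "do not eat" signals, PVR is read by natural killer and T cells through DNAM-1 and TIGIT, and CD276 is a member of the B7 family of T cell regulators. L1CAM and NCAM1 are cell adhesion molecules of neurons and of neural crest derivatives, and GPC2, CD24 and THY1 are held in the membrane by a glycosylphosphatidylinositol (GPI) anchor. Transcript levels do not measure how much protein reaches the surface.

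Expression is given in FPKM, which scales fragments by gene length and by library size, so levels can be set side by side between genes. The FPKM of a library added up to 848000 to 1106000, and the steps of low values gave relative depths of 1 to 1.95 times that of parental replicate 1. These depths are rough: each rested on 22 to 93 low genes, of which 21.5% to 68.2% gave the most common value. The noradrenergic identity genes HAND2 (line means of 370 to 456 FPKM) and PHOX2A (367 to 554) were abundant in every line, and TH did not exceed 0.582 in any library. Other noradrenergic markers differed between the parental line and the resistant lines. DBH was at 812 FPKM in the parental line and 155 to 335 in the resistant lines (log2 difference of the mean -1.79). ISL1 was at 172 and 82.4 to 137 (-0.57 in the mean), and GATA3 at 35.1 and 162 to 194 (2.33). Each of these markers passed the limma test in that mean. Their part in the results for the surface protein genes was not tested. All 4 endothelial markers and 4 of 5 leukocyte markers stayed under 1 FPKM in every library. The fibroblast markers are given beside THY1. In bulk RNA, fewer cells of a type and less RNA per cell cannot be told apart.

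When the 5 resistant lines were averaged and set against the parental line, 5 of the 8 tested members fell and 1 rose. L1CAM, PVR, SSTR2, THY1 and NCAM1 were lower, GPC2 was higher, and CD276 and CD47 did not pass the test. Calls come from a limma model of log2(FPKM + 1) and need an adjusted p under 0.05, with Benjamini-Hochberg (BH) adjustment over all 19799 tested genes. In that comparison 28.9% of all tested genes were called lower and 23.9% higher, so calls were common. The median log2 fold of the members was -0.62, beside 0.02 for all tested genes.

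Line by line, 5 members were called lower in ER5, where 27.5% of all tested genes were. The count was 3 in ER28 (20.9% of all tested genes) and 4 in ER29 (27.1%). It was 5 in ER42 (22.8%) and 5 in ER47 (28.1%). The only member called higher in any line was GPC2, in ER28, ER29 and ER42. The share of all tested genes called higher was 14.6% in ER28, 23.1% in ER29 and 16.9% in ER42, and it was 24.5% in ER5 and 18.8% in ER47. L1CAM and PVR were called lower in all 5 lines, as were 12.3% of all tested genes, and no member was called higher in all 5, against 5.63% of all tested genes. For L1CAM, PVR and SSTR2 all 15 resistant libraries lay below all 3 parental libraries, which was true of 15.9% of all tested genes. No member had all 15 above, against 8.68% of all tested genes. The 5 comparisons share the 3 parental libraries. When each library was left out in turn, the run without ER42 replicate 3 called 3 members lower in ER42 in place of 5.

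**Figure D1:**
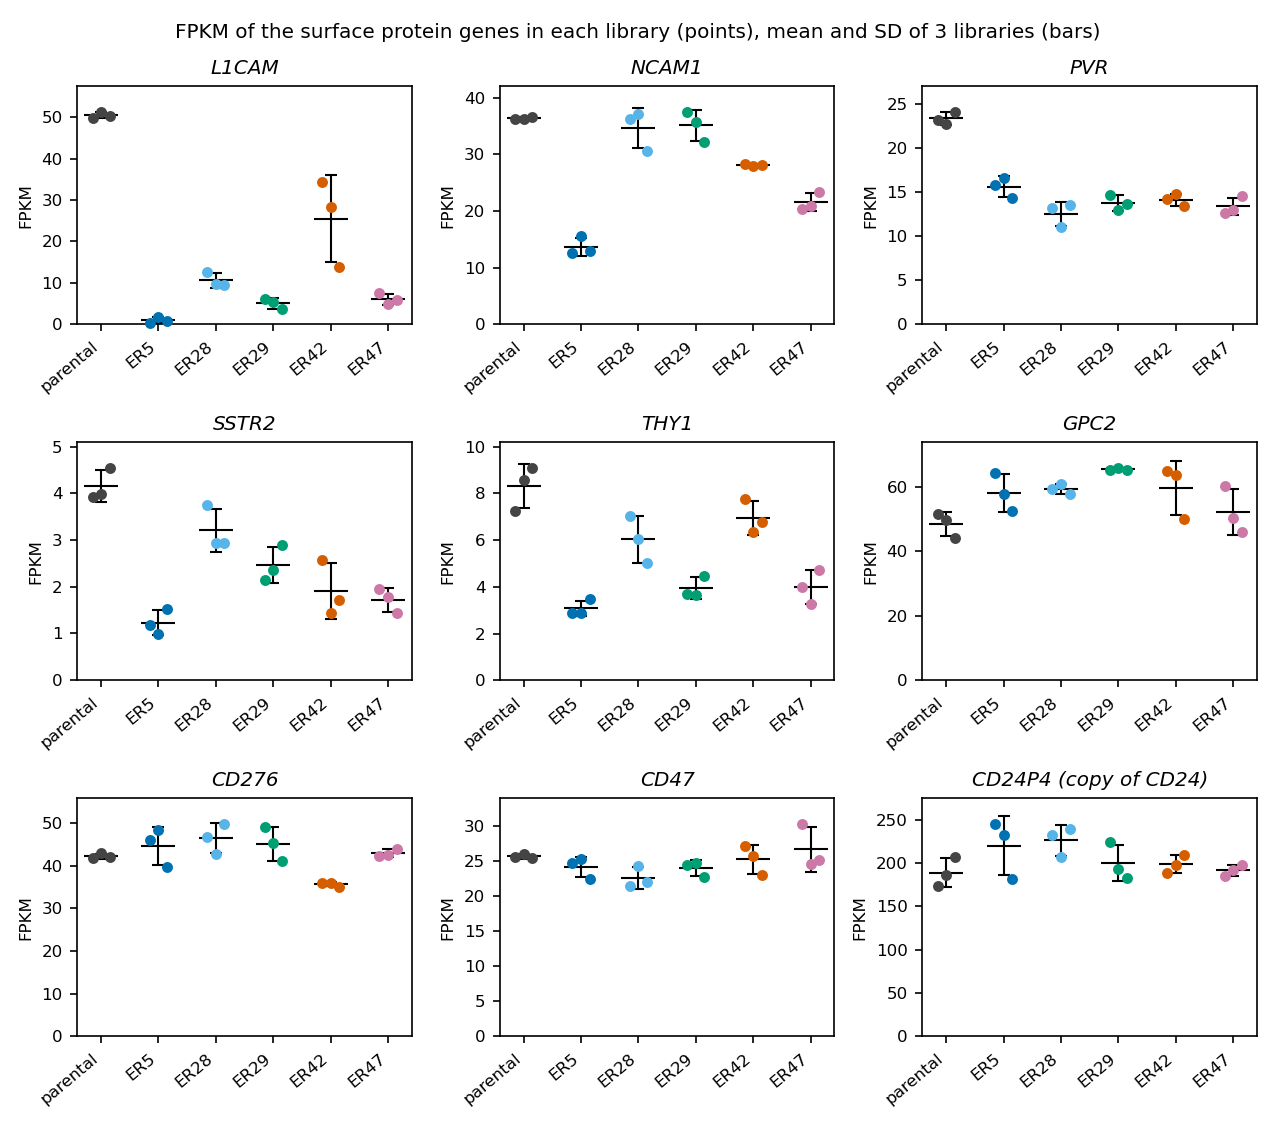
FPKM (linear axis) of each surface protein gene in the parental line and the 5 resistant lines. Points are libraries, horizontal bars are means and error bars are SD of 3 libraries. L1CAM ranges from 0.978 FPKM in ER5 to 50.5 in the parental line, whereas the line means of CD276 lie between 35.7 and 46.5 and those of CD47 between 22.6 and 26.7, and CD24P4 is the near-identical pseudogene of CD24, which was itself listed at 0 and is not drawn.

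L1CAM (ENSG00000198910; GRCh38 chrX:153861514-153886174, minus strand), the founding member of the L1 family of neural adhesion molecules and a CAR T cell target in neuroblastoma, showed the widest range of the 9 genes. It was one of the most abundant members in the parental line and fell in all 5 resistant lines, to between 1.94% and 50.4% of the parental mean. The 3 parental libraries held 49.8, 51.4 and 50.4 FPKM. ER5 held 0.369, 1.76 and 0.809, ER29 held 6.20, 5.48 and 3.62, and ER47 held 7.49, 4.82 and 5.83. ER28 stood at 12.7, 9.67 and 9.46, and ER42 at 34.3, 28.3 and 13.8. No resistant library reached the parental range. ER5 was close to the detection filter of 1 FPKM, and ER42 had the largest SD of the 6 lines for this gene (10.53 FPKM).

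On the log2(FPKM + 1) scale, which understates the change of low genes, the difference in L1CAM from the parental line was -4.76 ± 0.29 (SE, n = 3 against 3) in ER5, -3.10 in ER29, -2.89 in ER47, -2.16 in ER28 and -1.05 in ER42. The limma adjusted p-values ran from 5.2e-09 in ER5 to 0.0101 in ER42. The ER42 call rested on 1 library: without ER42 replicate 3 the difference was -0.68 and its adjusted p was 0.0526. The mean over the 5 lines was -2.79 ± 0.23 (limma, adjusted p = 1.03e-07). The error of such a mean comes from libraries within lines and does not measure how far the lines vary. In the order of the lines, ER5 was below ER29 (limma, adjusted p = 0.00119), ER28 below ER42 (adjusted p = 0.0139) and ER42 below the parental line. Neither ER29 and ER47 nor ER47 and ER28 differed beyond their spread, although ER29 was below ER28 (adjusted p = 0.0308). Among the resistant lines the highest line mean was 26.1 times the lowest.

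The promoter of L1CAM is shown because this gene carried the largest fall, with PVR and SSTR2 further on as the other members lower in every resistant library. Each is a RefSeq window of 300 bases on GRCh38.p14, most of it upstream of a listed start, and entries were found for 7 of the 9 members. Capitals mark GGGCGG on either strand, the core of the GC box. L1CAM has more than one listed start, and the first listed is shown, at chrX:153875895-153876194 on the minus strand.
L1CAM promoter: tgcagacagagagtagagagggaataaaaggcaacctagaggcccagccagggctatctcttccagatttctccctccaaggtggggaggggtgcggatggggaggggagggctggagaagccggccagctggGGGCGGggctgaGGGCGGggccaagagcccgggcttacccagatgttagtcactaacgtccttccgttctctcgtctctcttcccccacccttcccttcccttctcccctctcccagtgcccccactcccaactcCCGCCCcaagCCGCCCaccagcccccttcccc
The window held 4 copies of GGGCGG. Searched on both strands, it held neither TATAAA, the TATA box core, nor the CAAT box letters CCAAT, nor the E-box CACGTG, and none of these 4 motifs contains another. Of 35116 promoter windows of this length, 45% held GGGCGG on either strand, 11.5% held TATAAA, 34.6% held CCAAT and 7.3% held CACGTG. It held 10 CpG dinucleotides, against a median of 14 over those windows, and its GC content was 64.7%. These are descriptions of letters, not of binding.

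Relatives and partners of L1CAM moved in both directions. Of 7 genes listed as L1 family members, contactins and ankyrins, 6 were tested. In the mean of the 5 lines 2 were called higher and 3 lower, with a median of -0.53. Over all tested genes 23.9% were called higher and 28.9% lower in that mean. ANK2, an ankyrin that links L1-type proteins to the spectrin skeleton, was at 55.01 FPKM in the parental line and 14.1 to 44.5 in the resistant lines (log2 difference -1.32 ± 0.12, adjusted p = 2.75e-07). NFASC, encoding the L1 family member neurofascin, fell by 1.03 on the log2 scale in the mean but was higher in ER28 (0.57) and lower in ER5 (-2.84). ANK3, encoding ankyrin-G, fell by 0.92 on the log2 scale. CNTN1, encoding contactin, a GPI-anchored binding partner of L1 family proteins, rose in all 5 lines, from 17.2 FPKM in the parental line to between 35.1 and 49.4 (1.11 ± 0.19, adjusted p = 1.83e-04). CHL1, the closest homologue of L1CAM, stayed at or below 0.707 FPKM in every library. In ER42 none of these 6 genes was called lower, whereas 4 were in ER5, ER29 and ER47, and 2 in ER28.

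NCAM1 (ENSG00000149294; GRCh38 chr11:112961247-113278436, plus strand), the neural cell adhesion molecule and a target of antibody-drug conjugates, fell in 3 of the 5 resistant lines. The fall was largest in ER5, intermediate in ER47 and smallest in ER42. The parental libraries held 36.3, 36.1 and 36.6 FPKM. ER5 held 12.5, 15.5 and 12.9, ER47 held 20.3, 20.9 and 23.3, and ER42 held 28.2, 27.9 and 28.1. ER28 (36.2, 37.1 and 30.6) and ER29 (37.5, 35.7 and 32.1) overlapped the parental libraries, and the other 3 lines lay wholly below them.

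The log2 difference in NCAM1 was -1.36 ± 0.086 in ER5 (limma, adjusted p = 7.18e-09), -0.73 in ER47 (6.44e-06) and -0.36 in ER42 (0.00399). After quantile normalisation the ER42 value was -0.21 with an adjusted p of 0.0742. In ER28 the difference was -0.07 (95% interval -0.26 to 0.11) and in ER29 it was -0.05 (-0.23 to 0.13), and the sign of each depended on the scaling or on the third replicate. The mean over the 5 lines was -0.51 ± 0.067 (adjusted p = 1.11e-05). Each step in the order ER5, ER47, ER42, ER28 passed the test between neighbours, with adjusted p-values of 2.01e-04, 0.00726 and 0.0272, whereas ER28, ER29 and the parental line did not differ beyond their spread. An antisense gene, NCAM1-AS1, lies within NCAM1. No source used here states whether counting used strand, so reads of the 2 genes may be mixed.

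The other genes of NCAM biology rose where they passed the test in the mean of the 5 lines (2 of 3 higher, 0 lower, median 0.81). Among all tested genes 23.9% were called higher and 28.9% lower in that mean. ST8SIA2, one of the polysialyltransferases that add polysialic acid to NCAM1, was at 4.27 FPKM in the parental line and at 10.1 to 19.1 in the resistant lines. It rose in all 5, by 1.49 ± 0.080 in the mean (adjusted p = 1.43e-09). NCAM2, the paralogue of NCAM1, rose by 1.72 in ER5, 1.00 in ER42 and 1.51 in ER47, the lines in which NCAM1 was lower, fell by 0.69 in ER28, and was not called in ER29 (0.50). ST8SIA4, the second polysialyltransferase, was between 1.73 and 2.77 FPKM in the line means and was called higher only in ER42 (0.46).

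PVR (ENSG00000073008; GRCh38 chr19:44643798-44663583, plus strand) encodes CD155, the poliovirus receptor, a nectin-like ligand of DNAM-1, TIGIT and CD96. It fell in each resistant line, to between 53.7% and 66.7% of the parental mean. In the parental line the values were 23.2, 22.7 and 24.2 FPKM. ER5 held 15.8, 16.6 and 14.3, ER28 held 13.2, 11.0 and 13.5, and ER29 held 14.7, 12.9 and 13.7. ER42 held 14.2, 14.8 and 13.4, and ER47 held 12.6, 12.9 and 14.53. The 15 resistant libraries spanned 11.0 to 16.6 FPKM and did not overlap the parental ones.

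The log2 difference in PVR ranged from -0.56 ± 0.081 in ER5 (limma, adjusted p = 3.45e-05) to -0.85 in ER28 (1.41e-06), and its mean over the 5 lines was -0.72 ± 0.063 (2.39e-07). The call held in each line under every alternative run, including each left-out library. The F test among the resistant lines gave an adjusted p of 0.0592, which fell below 0.05 in 4 of 26 alternatives. Of the pairs of resistant lines, only ER5 and ER28 passed the test of their difference (adjusted p = 0.0113). The only step between neighbours in the order that passed was that from ER5, the highest resistant line, to the parental line.
The RefSeq promoter window of PVR (chr19:44643660-44643959, plus strand) is entirely in lower case because it held none of the 4 motifs. It held 27 CpG dinucleotides.
PVR promoter: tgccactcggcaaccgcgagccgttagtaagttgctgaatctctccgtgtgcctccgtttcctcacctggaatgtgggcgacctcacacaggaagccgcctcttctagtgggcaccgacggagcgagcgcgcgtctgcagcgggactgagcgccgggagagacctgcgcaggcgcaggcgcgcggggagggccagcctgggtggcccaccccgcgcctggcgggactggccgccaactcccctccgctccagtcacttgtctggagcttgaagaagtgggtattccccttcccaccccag

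NECTIN1 and NECTIN3, adhesion relatives of PVR, also fell. NECTIN3, a binding partner of CD155 at cell contacts, went from 30.3 FPKM in the parental line to 4.64 to 9.12 in the resistant lines (-1.99 ± 0.091 in the mean, limma adjusted p = 2.53e-10). NECTIN1 went from 15.6 to between 2.71 and 5.73 (-1.68 ± 0.088, adjusted p = 1.07e-09). Both were called lower in every line. NECTIN2 (CD112), the other ligand of DNAM-1, went the other way, from 4.83 to between 6.02 and 9.61 (0.56 ± 0.086, adjusted p = 5.48e-05), and was not called in ER42 (0.27). Of the 12 nectins and NKG2D ligands listed only these 3 were tested: MICA, MICB, ULBP1, ULBP2, ULBP3 and the RAET1 genes, ligands of the activating receptor NKG2D, never exceeded 0.544 FPKM in any library.

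**Figure D2:**
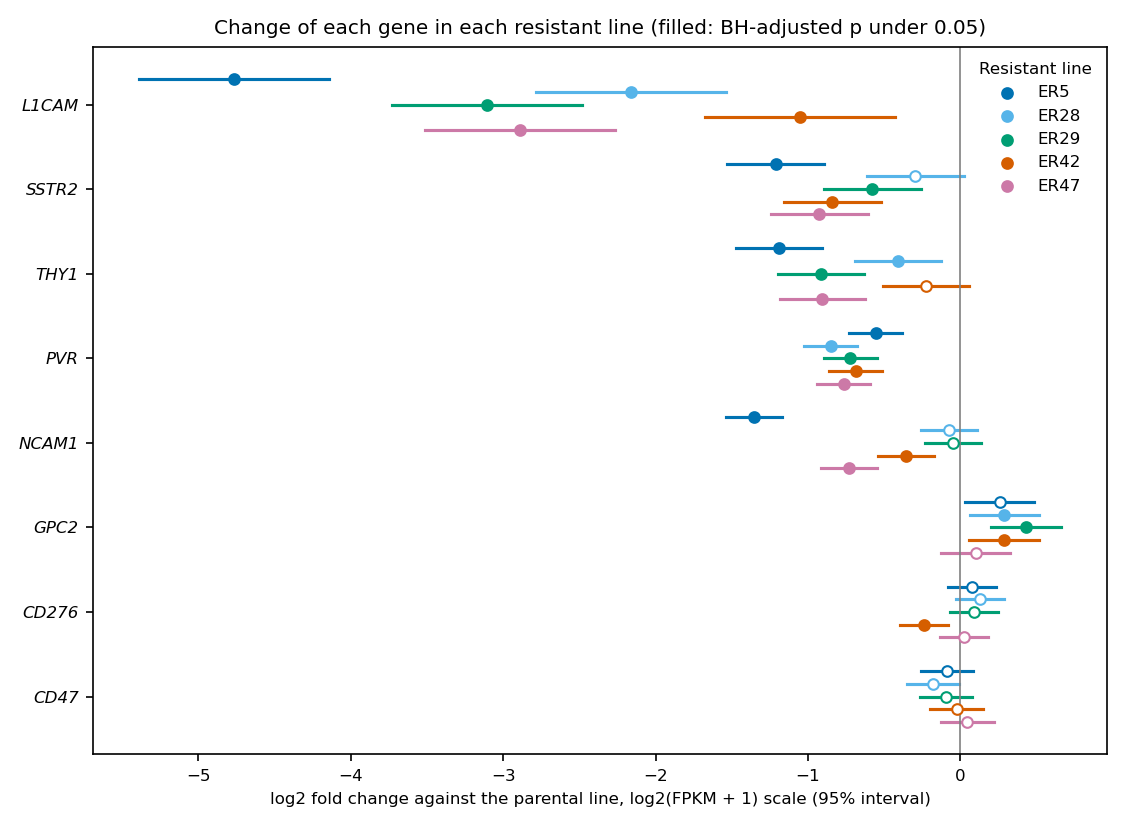
Log2 difference from the parental line on the log2(FPKM + 1) scale for each tested gene (rows) and resistant line (colours). Circles are estimates of the limma model, filled where the BH-adjusted p is under 0.05, and lines are 95% intervals. PVR values cluster between -0.85 and -0.56, L1CAM values spread from -4.76 to -1.05, and those of CD276 and CD47 lie around 0.

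CD47 (ENSG00000196776; GRCh38 chr3:108043094-108091862, minus strand), the ligand of SIRPα on macrophages, was not called in any line with the FPKM as deposited and all libraries in 1 model. The parental line stood at 25.7, 26.04 and 25.4 FPKM. The resistant libraries had a lowest value of 21.4, a median of 24.6 and a highest of 30.4, so that the groups overlapped. Line means ran from 22.6 ± 1.54 in ER28 to 26.7 ± 3.21 in ER47 (SD, n = 3). The mean log2 difference over the 5 lines was -0.07, with a 95% interval from -0.20 to 0.07 (limma, adjusted p = 0.388). The sign of this difference turned to 0.06 after quantile normalisation, under which ER47 was called higher (0.21, adjusted p = 0.0401). ER28 (-0.18) was called lower when only that line and the parental line were fitted (adjusted p = 0.0460). No pair among the 6 lines passed the test of their difference.

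Genes around CD47 signalling moved in both directions. CALR, encoding calreticulin, an "eat me" signal when exposed at the surface, was at 492 FPKM in the parental line and at 208 to 245 in the resistant lines (-1.12 ± 0.085, adjusted p = 5.62e-08). LRP1, the phagocyte receptor for calreticulin, which is also expressed by other cells, was at 20.2 FPKM in the parental line and 19.1 to 33.8 in the others (0.39, adjusted p = 3.57e-04). QPCTL, the enzyme that forms the pyroglutamate on CD47 needed for SIRPα binding, rose by 0.24 in the mean (adjusted p = 0.0357). Among the single lines it was called only in ER5 (0.73, limma adjusted p = 7.69e-05), at 5.06 FPKM beside 2.64 in the parental line. The other resistant lines had means of 2.53 to 3.33 FPKM and were not called. SIRPA itself lay between 0.635 and 1.72 FPKM in all libraries. It did not pass the test in the mean of the 5 lines (0.09) but was called higher in ER47 (0.38, adjusted p = 0.0163). Of 5 genes listed, 4 were tested, with 2 higher, 1 lower and a median of 0.17 in that mean. Calls over all tested genes were 23.9% higher and 28.9% lower in the mean of the 5 lines. None of the 6 listed immune cell receptors (TIGIT, CD96, CD226, SIGLEC10, SIRPG and SELP) reached the filter, and their highest library value was 0.751 FPKM.

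CD276 (ENSG00000103855; GRCh38 chr15:73683966-73714518, plus strand), which encodes the B7 family protein B7-H3, stayed between 35.1 and 49.9 FPKM in every resistant library. The parental libraries held 41.7, 42.9 and 42.1 FPKM. ER42 held 36.0, 35.9 and 35.1, wholly below them. ER5 (46.0, 48.3 and 39.8), ER28 (46.8, 42.8 and 49.9), ER29 (49.1, 45.3 and 41.1) and ER47 (42.2, 42.6 and 44.0) overlapped or surrounded the parental values.

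The log2 difference in CD276 was -0.24 ± 0.074 in ER42 (limma, adjusted p = 0.0187). That call was lost without ER42 replicate 3 (adjusted p = 0.0526), without parental replicate 2 (0.0564) and after quantile normalisation (-0.07, adjusted p = 0.422). In the mean of the 5 lines the difference was 0.02, with a 95% interval from -0.11 to 0.14 (adjusted p = 0.832). Its sign depended on the scaling: it was -0.0047 under median-of-ratios scaling (adjusted p = 0.962), and 0.19 after quantile normalisation, where it passed the test (0.00397), as did each line but ER42. ER42 was below each of the other 4 resistant lines, with adjusted p-values from 0.00241 against ER28 to 0.0224 against ER47. Of the other B7 family genes listed, 1 of 9 was tested. NCR3LG1 (B7-H6), a ligand of the natural killer receptor NKp30, rose from 3.61 FPKM to between 4.78 and 10.9 (0.88 ± 0.097, adjusted p = 2.33e-06), and was not called in ER42 (0.31). CD274 (PD-L1) did not exceed 0.919 FPKM in any library.

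GPC2 (ENSG00000213420; GRCh38 chr7:100169606-100177372, minus strand), a glypican of the developing nervous system, had the highest mean FPKM of the 8 tested members in each resistant line and was the only one of them that rose. In the parental line the values were 51.5, 49.6 and 44.1 FPKM. ER29 held 65.3, 65.9 and 65.3, ER28 held 59.2, 60.8 and 57.8, and ER5 held 64.2, 57.8 and 52.4. ER42 held 65.0, 63.7 and 49.9, and ER47 held 60.2, 50.3 and 46.0. ER5, ER28 and ER29 lay above every parental library, whereas ER42 and ER47 overlapped them.

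The log2 difference in GPC2 was 0.43 ± 0.11 in ER29 (limma, adjusted p = 0.00343), 0.29 in ER28 (0.0467) and 0.29 in ER42 (0.0450). The values in ER5 (0.26, adjusted p = 0.0553) and ER47 (0.10, 0.476) did not pass. The mean over the 5 lines was 0.27 ± 0.083 (0.0116). It did not pass without parental replicate 3, the lowest parental library (0.21, adjusted p = 0.0957). The ER28 call was lost in 14 of 27 alternatives and the ER42 call in 17, including the removal of any single parental library. The ER29 call held in all 27. Replicate 3 held the lowest GPC2 value in every line. With the replicate number as a block, ER5 also passed (adjusted p = 0.0103). No pair of resistant lines passed the test of their difference.

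Other glypicans moved in both directions. GPC3, a target of antibodies in liver cancer, had its largest difference in ER28, where its mean was 39.5 FPKM against 4.81 in the parental line (2.80), and by 1.21 in ER42, but was not called in ER29 (0.04). GPC1 fell by 0.37 ± 0.069 on the log2 scale in the mean (adjusted p = 3.26e-04), and GPC6 rose by 0.35 ± 0.068 (4.75e-04) although it was lower in ER28 (-0.33). Of 5 listed, 4 were tested, with 2 higher, 1 lower and a median of 0.33. Of 28 genes of GPI anchor assembly, the pathway that attaches GPC2, CD24 and THY1 to the membrane, 27 were tested. In the 5-line mean 4 of these were called higher and 8 lower, with a median of -0.06. Over all tested genes the shares in that mean were 23.9% higher and 28.9% lower. PIGS and PIGT, subunits of the transamidase that joins the anchor to the protein, fell by 0.60 and 0.49 on the log2 scale. DPM2, a subunit of the enzyme that supplies dolichol-phosphate mannose, fell by 0.48. PGAP3, which remodels the lipid of the anchor, rose by 0.66.

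THY1 (ENSG00000154096; GRCh38 chr11:119417378-119424985, minus strand), a small GPI-anchored immunoglobulin family protein of neurons, fibroblasts and T cells, fell in 4 of the 5 resistant lines. The parental line stood at 7.26, 8.57 and 9.11 FPKM. ER5 held 2.86, 2.89 and 3.46, ER29 held 3.70, 3.64 and 4.48, and ER47 held 4.01, 3.26 and 4.70. ER28 held 7.04, 6.05 and 5.03, and ER42 held 7.75, 6.33 and 6.80. All resistant libraries but ER42 replicate 1 lay below the parental libraries.

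The log2 difference in THY1 was -1.19 ± 0.13 in ER5, -0.91 in ER29 and -0.91 in ER47, with limma adjusted p-values from 2.06e-06 to 4.68e-05. In ER28 it was -0.41 (adjusted p = 0.0243). The ER28 call was lost when ER28 replicate 2 or 3 or parental replicate 2 or 3 was left out, with adjusted p-values of 0.0546 to 0.113. In ER42 it was -0.23 (0.186). The mean over the 5 lines was -0.73 ± 0.10 (2.36e-05). In the order of lines, only the step from ER47 to ER28 passed between neighbours (adjusted p = 0.0172). Because THY1 is also a fibroblast gene, the 6 fibroblast markers were summed. Their sum lay between 37.3 and 45.0 FPKM in the parental libraries, 46.4 to 50.5 in ER5, 71.5 to 75.1 in ER28, 32.4 to 36.6 in ER29, 55.2 to 95.2 in ER42 and 54.3 to 57.7 in ER47. Of the 6, 5 were tested, with 4 higher and 1 lower in the mean of the 5 lines. Among all tested genes 23.9% were higher and 28.9% lower in that mean. LUM fell in all 5 lines, from 8.46 FPKM to between 0.742 and 4.40 (-1.80 in the mean, adjusted p = 3.02e-07). COL1A1 rose in all 5, from 2.76 to between 7.78 and 15.9 (1.58, adjusted p = 1.01e-06). PDGFRA (0.48) and PDGFRB (0.29) rose in the mean. COL1A2 did not exceed 0.877 FPKM in any library, and DCN did not exceed 1.57. Their part in the THY1 result was not tested.

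SSTR2 (ENSG00000180616; GRCh38 chr17:73165012-73176633, plus strand), the somatostatin receptor addressed by radiolabelled peptides in imaging and therapy, had the lowest level of the 8 tested genes in the parental line. It fell in 4 of the 5 resistant lines. The parental libraries held 3.92, 3.98 and 4.55 FPKM. ER5 held 1.18, 0.991 and 1.52, ER47 held 1.94, 1.78 and 1.43, and ER42 held 2.58, 1.44 and 1.72. ER29 held 2.15, 2.35 and 2.89, and ER28 held 3.74, 2.94 and 2.94. All 15 resistant libraries were below the lowest parental library, but ER28 replicate 1 came close to it.

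The log2 difference in SSTR2 was -1.21 ± 0.15 in ER5 (limma, adjusted p = 6.08e-06), -0.93 in ER47 (1.15e-04), -0.84 in ER42 (4.49e-04) and -0.58 in ER29 (0.00459). In ER28 it was -0.30 (95% interval -0.61 to 0.02, adjusted p = 0.141). The mean over the 5 lines was -0.77 ± 0.12 (4.57e-05). These 4 calls and that of the mean held in every alternative that tested the gene. No neighbours in the order of lines differed beyond their spread. Of the rest of the somatostatin system, SSTR1, SSTR4, SSTR5 and the hormone gene SST did not exceed 0.206 FPKM in any library. SSTR3 was also listed, but no identifier was matched to it, so its level is not known here. CORT, encoding the related hormone cortistatin, was the only one tested and was not called (0.32, adjusted p = 0.0993).
The promoter window of SSTR2 (chr17:73164760-73165059, plus strand) held 27 CpG dinucleotides and 1 copy of GGGCGG, in capitals, and none of the other motifs.
SSTR2 promoter: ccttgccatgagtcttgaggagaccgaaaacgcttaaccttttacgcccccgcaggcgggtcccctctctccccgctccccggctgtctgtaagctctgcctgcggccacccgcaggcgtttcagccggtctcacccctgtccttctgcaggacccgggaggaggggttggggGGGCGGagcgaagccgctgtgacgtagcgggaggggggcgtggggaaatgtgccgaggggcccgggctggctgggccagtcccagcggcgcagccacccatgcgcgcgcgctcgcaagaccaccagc

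CD24 (ENSG00000272398; GRCh38 chr6:106969831-106975627, minus strand), a small heavily glycosylated GPI-anchored protein that binds Siglec-10, was listed at 0 in all 18 libraries. The listing does not show that the gene was silent. A near-identical processed pseudogene, CD24P4 (ENSG00000185275; GRCh38 chrY:18992467-18992709, minus strand), carried 173 to 245 FPKM in the same libraries. CD24P4 was added after these values were seen. Its whole annotated length equals the coding sequence of CD24, and both are shown in capitals where they differ, from the GENCODE v29 transcripts.
CD24: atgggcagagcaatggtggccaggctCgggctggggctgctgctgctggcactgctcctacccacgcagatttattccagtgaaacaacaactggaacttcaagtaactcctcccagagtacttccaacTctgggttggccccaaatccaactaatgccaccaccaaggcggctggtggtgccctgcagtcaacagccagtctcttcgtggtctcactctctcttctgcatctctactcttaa
CD24P4: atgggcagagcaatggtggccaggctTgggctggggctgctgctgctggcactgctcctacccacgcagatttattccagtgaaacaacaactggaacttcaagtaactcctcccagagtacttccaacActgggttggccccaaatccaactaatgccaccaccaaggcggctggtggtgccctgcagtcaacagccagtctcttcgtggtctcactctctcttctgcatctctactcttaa
Of 243 aligned bases 241 (99.2%) were identical. With positions counted from 1 at the ATG, and the CD24 base first, the differences were C27T and T130A. The longest identical run was 113 bases, and the RNA had been fragmented to lengths of this order, so many fragments of the coding sequence would match both genes. No source used here states how such reads were assigned, and values under either identifier are uncertain.

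The CD24P4 row did not pass the test in any resistant line with the FPKM as deposited, but passed in all 5 after quantile normalisation. In the parental line the values were 173, 186 and 206 FPKM, and the resistant libraries ranged from 181 to 245, with a median of 198. The groups overlapped. The mean log2 difference over the 5 lines was 0.13, with a 95% interval from -0.05 to 0.30 (limma, adjusted p = 0.205). The smallest adjusted p among the lines was 0.0709, in ER28 (0.26). After quantile normalisation the mean difference was 0.43 (adjusted p = 7.9e-05), and the lines ranged from 0.26 in ER42 (0.028) to 0.53 in ER29 (1.36e-04). If taken at its face value, this row lay at percentile 98.0 to 98.9 of protein-coding genes, above all 8 tested members.

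The resistant lines differed among themselves in 5 of the 8 tested members by the limma F test, and in 52.3% of all tested genes. NCAM1, L1CAM, THY1, SSTR2 and CD276 passed, with adjusted p-values from 1.27e-07 to 0.00417. Of the 10 pairs of resistant lines, NCAM1 differed in 9, L1CAM in 8, THY1 in 6, SSTR2 in 4, CD276 in 4 and PVR in 1, whereas GPC2 and CD47 passed the test in none. Over all tested genes, 23.1% of these pairwise tests were called. ER5 had the lowest mean of the resistant lines for L1CAM, NCAM1, SSTR2 and THY1, and the highest for PVR. ER42 had the highest L1CAM and THY1 among the resistant lines and the lowest CD276.

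No member passed the test between the dosing intervals of the mice. With the 2 lines of the 6 hour schedule compared with the 3 of the 4 hour schedule, 0 of 8 members were called, with limma adjusted p-values from 0.829 to 0.979. In the same test 3 of 19799 genes (0.0152%) were called, and 860 had an unadjusted p under 0.05. The widest interval was that of L1CAM, with a log2 difference of 1.37 (95% interval -0.75 to 3.50, 6 hour minus 4 hour). For CD276 it was -0.21 (-0.49 to 0.08), and for GPC2 it was -0.13 (-0.42 to 0.15).

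**Figure D3:**
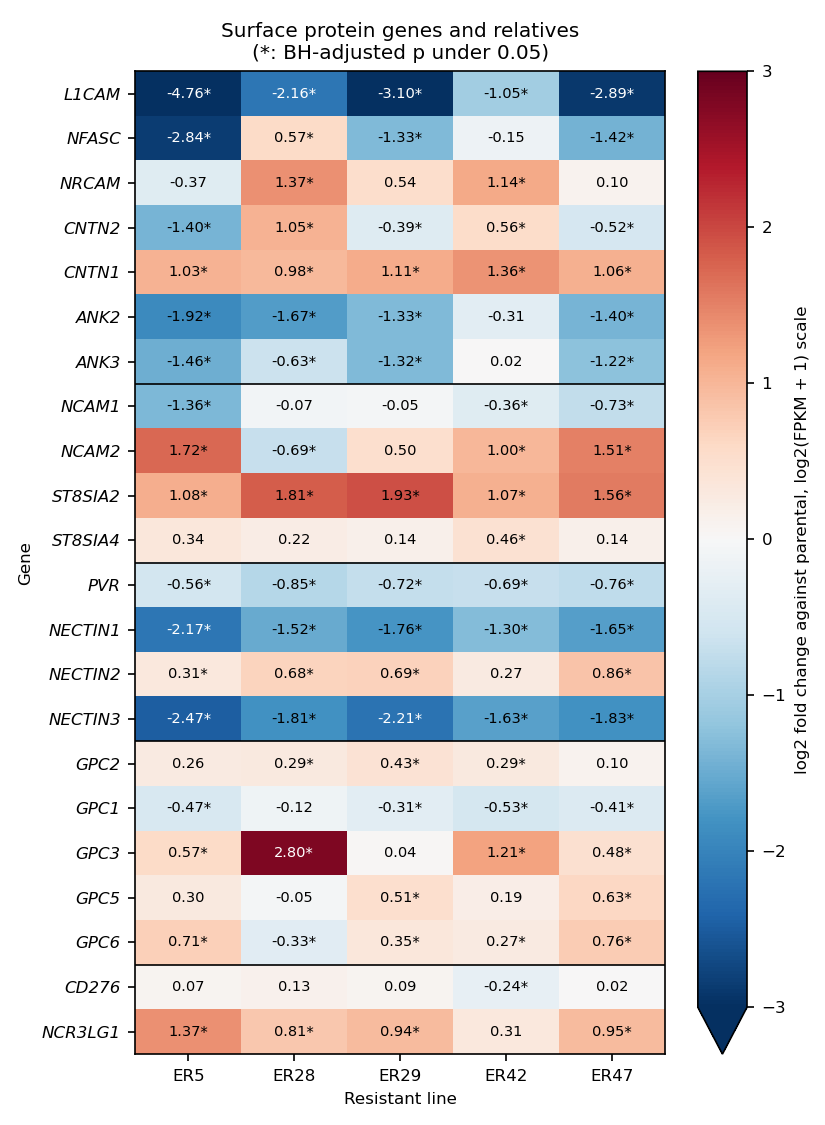
Log2 difference from the parental line on the log2(FPKM + 1) scale (colour and printed value) for 5 of the surface protein genes and their tested relatives (rows) in each resistant line (columns). Asterisks mark a BH-adjusted p under 0.05, and the colour scale ends at 3 in either direction. NECTIN1 and NECTIN3 are lower and ST8SIA2 and CNTN1 higher in all 5 lines, while GPC3 is highest in ER28 (2.80).

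Correlations between members were above 0.7 in 5 pairs over the 18 libraries. The libraries share 6 lines, so the correlations mainly describe differences between lines and have no p. Pearson's r of log2(FPKM + 1) was 0.915 between L1CAM and THY1, 0.786 between NCAM1 and SSTR2, 0.736 between THY1 and SSTR2 and 0.730 between L1CAM and NCAM1. It was 0.703 between L1CAM and SSTR2. PVR had r of 0.502 with L1CAM and 0.152 with NCAM1.

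The most similar of 12794 other protein-coding genes were named for each tested member by the same measure, up to 2 a member. For L1CAM they were DPYSL5 (r = 0.988), a collapsin response mediator protein of axon growth, and PNMA2 (0.985). For THY1 they were OGFRL1 (0.962) and SCN3A (0.959), a voltage-gated sodium channel gene. For NCAM1 they were DOCK11 (0.935) and CAD (0.929), the enzyme that starts pyrimidine synthesis. For PVR they were TMEM115 (0.962) and ALKBH5 (0.955), an RNA demethylase, which dropped to 0.788 and 0.737 over the 15 resistant libraries. For CD276 they were CMTM3 (0.925) and DDX41 (0.915), and for SSTR2 they were SLC17A5 (0.915), the lysosomal sialic acid transporter, and SLC35F6 (0.912). The closest gene to GPC2 was MT-CO1 (0.859), a mitochondrially encoded subunit of cytochrome oxidase. Those of CD47 were TIAL1 (0.766) and MKKS (0.712), the lowest likeness of the 8.

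Enzymes that cut surface proteins, L1CAM among them, moved in both directions. ADAM10, a main sheddase of L1CAM, was at 29.6 FPKM in the parental line and 39.7 to 47.9 in the resistant lines (0.51 ± 0.051, limma adjusted p = 8.12e-07). ADAM17 rose by 0.26 and BACE1 fell by 0.23 on the log2 scale. Of 6 listed, 5 were tested, with 2 higher, 1 lower and a median of -0.09 in the mean of the 5 lines. Calls over all tested genes were 23.9% higher and 28.9% lower.

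Among 10 further surface targets discussed for neuroblastoma, 7 were called higher and 1 lower in the 5-line mean, with a median of 0.42. Over all tested genes 23.9% were called higher and 28.9% lower in that mean. DLK1, a Notch-like surface protein of sympathetic progenitors, fell furthest, from 1155 FPKM in the parental line to 374 in ER42, 55.9 in ER47, 42.5 in ER28, 21.9 in ER29 and 4.87 in ER5 (-4.90 ± 0.38, limma adjusted p = 5.89e-08). EGFR rose from 9.70 FPKM to between 14.3 and 25.3 (0.81). ALK, the receptor tyrosine kinase that entrectinib also inhibits, was at 36.7 FPKM in the parental line and between 39.2 and 76.5 in the resistant lines (0.66). FGFR4 was at 0.912 and between 1.51 and 3.11 (0.70). SLC6A2, the noradrenaline transporter that takes up MIBG, did not pass the test, with 56.9 FPKM in the parental line and 69.6 to 80.6 in the resistant lines (0.32, adjusted p = 0.246).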

How the data were processed

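The authors deposited FPKM values for 63657 Ensembl identifiers in 18 libraries. Per the labels' protocols, ribosomal RNA was removed from 100 ng of total RNA and HiSeq and NextSeq instruments were used. No source used here says which instrument ran which library, so a batch could not be tested. The submitters' processing notes name STAR 2.5.3, featureCounts, Subread 1.5.0-p1, STAR-Fusion and hg19. How the FPKM were made, and whether by strand, is not stated. Identifiers were matched through GENCODE v29, whose GRCh38 coordinates are given; the values were made on hg19.

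Genes that reached 1 FPKM in 3 or more libraries were tested on log2(FPKM + 1) in 1 limma model with an intensity trend and 1 coefficient per line (R 4.3.3, limma 3.58.1), two-sided, with BH adjustment over all 19799 tested genes. The dosing intervals were compared over the 5 line means. The model was tested on simulated data. Alternatives were a pseudocount of 0.1, other filters and scalings, a replicate block and leaving out each library. The members and gene lists were chosen with earlier results of these data known. Named genes are the members, up to 4 called genes per list with the largest mean change, genes near 0 that a sentence needs, and up to 2 similar genes per member; a few items that these rules would name are not reported here.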

Additional observations from a re-analysis of the deposited data

Results flagged for a closer look

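In 5 members the change from the shared parental line differed between the resistant lines by the limma F test, with BH adjustment over all tested genes. The adjusted p was 1.27e-07 for NCAM1, whose line means ran from 13.6 FPKM in ER5 to 35.1 in ER29. It was 2.17e-06 for L1CAM, with line means of 0.978 FPKM in ER5 to 25.5 in ER42. For THY1 it was 1.19e-04, with 3.07 FPKM in ER5 and 6.96 in ER42. For SSTR2 it was 0.00116, with 1.23 FPKM in ER5 and 3.21 in ER28. For CD276 it was 0.00417, with 35.7 FPKM in ER42 and 46.5 in ER28. Each of the 5 calls held in all alternatives run.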

How the results depend on the processing

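Quantile normalisation gave a mean over the 5 lines of 0.193 for CD276 (adjusted p = 0.00397) and 0.0642 for CD47 (0.417). Its CD47 values were 0.021 in ER5, 0.053 in ER29, 0.108 in ER42 and 0.214 in ER47, the last of which was called (adjusted p = 0.0401), and its NCAM1 values were 0.0495 in ER28 and 0.133 in ER29. It raised CD24P4 to 0.429 in the mean, with a call in all 5 lines, and called CD276 higher in every line but ER42 and GPC2 higher in ER47. It called 2 members higher in ER5, ER28, ER29 and the mean, 3 higher in ER47, and 3 lower in ER42. Median-of-ratios scaling gave -0.0047 for CD276 in the mean. With that scaling, without a filter or without the trend, 0 members were higher in ER28 and ER42, and fitting only ER42 and the parental line also gave 0 in ER42. One member, GPC2, was higher in ER5 with a filter of FPKM 5, with only that line fitted, or with protein-coding genes alone. These scalings moved the median of all tested genes by less than 0.1.

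Leaving out 1 library at a time gave 0 to 1 members higher in ER5, ER28, ER42 and the mean, and 3 to 5 lower in ER42. GPC2 ranged from 0.209 (without parental replicate 3) to 0.319 in the mean and from -0.0054 to 0.185 in ER47. The interval difference of PVR ranged from -0.0449 to 0.0019. CD47 ranged from -0.0751 to 0.0381 in ER42 and from -0.0472 to 0.101 in ER47. NCAM1 ranged from -0.123 to 0.0126 in ER28 and from -0.0978 to 0.0111 in ER29. CD24P4 ranged from -0.0031 to 0.147 in ER29 and from -0.0366 to 0.0888 in ER47, with -6.39e-04 without ER47 replicate 3. The cause was not tested.

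Over all tested genes, same-numbered libraries had deviations with a mean r of 0.0168, beside -0.0084 for differently numbered ones. Of the 18 libraries, 9 correlated best with their own number. Such a mean does not measure an effect of replicate number on single genes. For GPC2, replicate 3 was the lowest library of every line, and the cause was not tested. With the replicate block 1 member was higher in ER5 in place of 0, and the GPC2 F test had an adjusted p of 0.0259. Of 2290 alternative values, 2149 were labelled as unchanged. For a fold this means the same direction and side of the threshold, and for an F test the same side. A count of members could differ a little: 2 to 4 lower in ER28 were labelled unchanged beside 3. Leaving out a library of a line outside a comparison could not move its fold.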
